A study of Mus musculus with 57 samples.

Results

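Heterozygosity for Shank2 was read over all 57 libraries of prefrontal cortex, pooled over the drug the mice had been given, to find which expression differences recur in every treatment. All 57 libraries of the series belong to the comparison, 30 from mice heterozygous for Shank2 (HT) and 27 from wild-type mice (WT). The pooled difference of a gene is the mean of its 6 HT minus WT differences, 1 for each combination of vehicle, fluoxetine or lithium with females or males. Differences are on the scale log2(normalized count + 1), and 16659 genes with a mean normalized count of at least 10 were tested. The question is what stays constant over treatments away from the chromosomal region of Shank2 itself.

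Shank2 encodes a scaffold protein of the postsynaptic density of excitatory synapses, where it links glutamate receptors, through adaptor proteins, to the actin cytoskeleton. Variants in SHANK2 are found in people with autism and intellectual disability. The prefrontal cortex holds glutamatergic projection neurons in layers, several classes of GABA-releasing interneurons, and glia, and the genes described below belong to the synapses, channels and signals of these cells.

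All mice were C57BL/6N, 25 days old, and were exposed to vehicle, to fluoxetine (a serotonin reuptake inhibitor) or to lithium (a mood stabilizer) from day 3 to day 24, by way of the nursing mother. HT libraries numbered 10 with vehicle, 10 with fluoxetine and 10 with lithium, and WT libraries 8, 10 and 9, with females and males in each. The labels describe neither the Shank2 allele nor the litters, and pups of 1 mother may share more than a drug. P-values therefore measure only the spread between these samples. In bulk tissue, fewer cells of a type and less RNA per cell cannot be told apart.

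The totals of normalized counts ran from 30.4 to 33.2 M (mega) per library, and 21509 to 23264 genes lay above 0. All 10 upper layer and 14 of 15 deep layer markers of cortical excitatory neurons passed the minimum level. Markers of neighbouring tissue differed widely between libraries of both genotypes: the summed level of 22 striatal markers ran from 16610 to 40790 in HT and from 16480 to 57980 in WT, and that of 15 olfactory bulb markers from 12020 to 35420 and from 12840 to 48090. WT vehicle male 2 stood apart, with a median correlation of 0.968 to the other libraries and a trend of its values with transcript length. The next lowest correlations were 0.970 for HT fluoxetine male 3 and 0.977 for WT vehicle female 1. Counts were recomputed without each library in turn and, as an alternative chosen after seeing the data, with the striatal and olfactory levels of each library as terms of the fit ("tissue terms").

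Shank2 itself checks the genotype labels. Its normalized count ran from 3877 to 5006 in HT, with a median of 4389.8, and from 6762 to 11791 in WT, with a median of 9886. The ranges do not overlap. The pooled log2 change was -1.17 ± 0.04 (standard error; adjusted p = 6.52e-32, limma with Benjamini-Hochberg adjustment over all genes tested). Of the related scaffold genes, Shank1 had a log2 difference of 0.08 ± 0.05 and Shank3 of 0.04 ± 0.03, and neither passed the threshold of 0.05 on the adjusted p that defines a called gene.

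Over all treatments 623 of 16659 genes were called (3.74%), 270 higher in HT (1.62%) and 353 lower (2.12%). Of these, 15 lay among the 116 tested genes within 10 Mb of Shank2 and 608 lay elsewhere, 262 higher and 346 lower. The differences were small: the median absolute log2 change of the called genes was 0.15, against 0.05 over all genes tested, and the median standard error was 0.04. Only 7 of the 608 changed by 1.5-fold or more. The same sign in all 6 combinations of drug and sex was seen for 314 of the 608 called genes, and in 5 of 6 for another 253, while 5.8% of all genes tested had 1 sign in all 6. The call rests on the mean of these 6 differences, so these counts describe the called genes and support nothing further.

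A stricter class was formed of genes separated in every treatment, that is, called over all treatments and with the same sign and an unadjusted p under 0.05 in vehicle, in fluoxetine and in lithium libraries taken alone. The 3 treatments share no library. This class held 0.72% of all genes tested, 0.246% higher and 0.474% lower in HT. Outside the Shank2 region it held 108 genes, 34 higher and 74 lower, with absolute log2 changes from 0.06 to 0.97 and a median of 0.22. All 108 stayed called over all treatments whichever of the 57 libraries was left out, and 34 of them stayed separated in each of those 57 runs. With tissue terms 76 genes were separated, of which 56 were among the 108. Since the class was chosen for its sign in each treatment, that sign is a description and not further evidence.

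The clearest rise was that of Hrk, which encodes harakiri, a pro-apoptotic protein of the BCL2 family that has only the BH3 domain. Its normalized count ran from 2463 to 4479 in HT, with a median of 3288, and from 1970.0 to 2987 in WT, with a median of 2657. Of the 30 HT libraries, 29 lay above the WT median, while the upper WT libraries overlapped the lower HT ones. In vehicle alone the ranges were apart, from 3002 to 3734 in HT and from 1970.0 to 2752 in WT. Hrk was chosen on these same values, and the share of all genes with ranges apart in vehicle was not counted. The pooled log2 change was 0.37 ± 0.04 (adjusted p = 2.31e-09), made of 0.48 in vehicle, 0.35 in fluoxetine and 0.28 in lithium.

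Grp, the gene of gastrin-releasing peptide, rose by 0.46 ± 0.06 (adjusted p = 1.65e-06). Its count ran from 132 to 309 in HT (median 218) and from 108 to 241 in WT (median 163), and 29 HT libraries lay above the WT median. The rise was 0.51 in vehicle, 0.42 in fluoxetine and 0.46 in lithium. Slc44a5, which encodes a choline transporter-like protein, ran from 402 to 716 in HT (median 518) and from 298 to 490 in WT (median 420). All 27 WT libraries lay below the HT median, and the log2 change was 0.34 ± 0.05 (adjusted p = 1.09e-06).

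St8sia2, whose enzyme adds polysialic acid to the neural cell adhesion molecule, ran from 203 to 401 in HT (median 285) and from 174 to 311 in WT (median 241). It rose by 0.34 ± 0.05 (adjusted p = 6.07e-06), with 0.29 in vehicle, 0.22 in fluoxetine and 0.50 in lithium. Of the 108 separated genes it alone had an unadjusted limma p under 0.05 for a genotype effect that varied with treatment (0.0499, adjusted p = 0.771). In lithium its HT libraries ran from 252 to 384 and its WT libraries from 187 to 257, a slight overlap. Pcdh19, an X-linked protocadherin gene linked to epilepsy, ran from 1446 to 2454 in HT and from 1285 to 2051 in WT and rose by 0.25 ± 0.04 (adjusted p = 6.07e-06), with 28 HT libraries above the WT median.

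**Figure D1:**
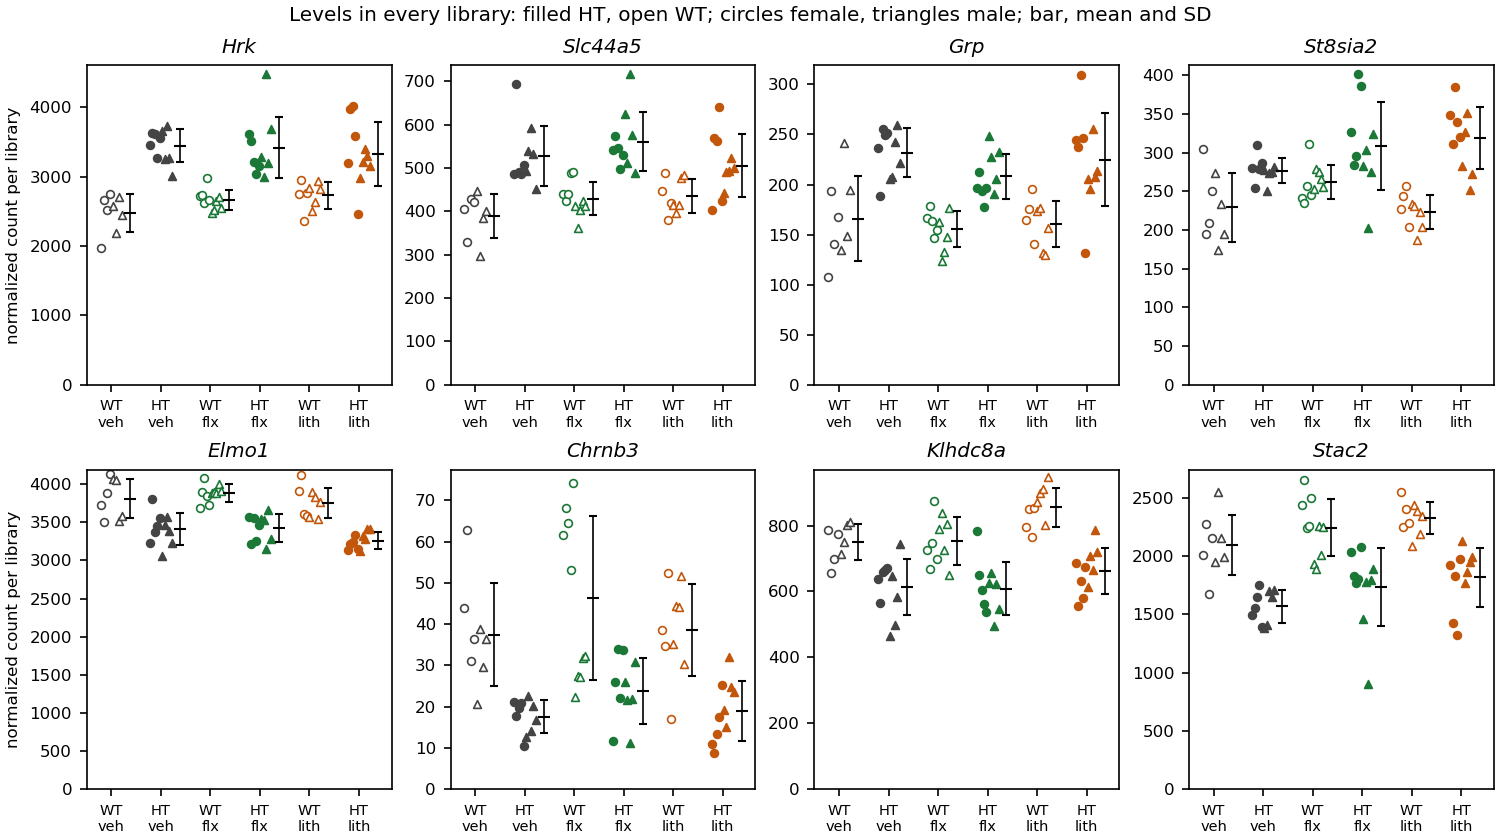
Normalized count in every library (vertical axis, from 0) for the 4 rises and the 4 falls with the smallest adjusted p outside the Shank2 region, by genotype and treatment; filled points are HT, open points WT, circles females, triangles males, and bars give the mean and SD. HT points sit above WT points for Hrk, Slc44a5, Grp and St8sia2 and below them for Elmo1, Chrnb3, Klhdc8a and Stac2 in each treatment, with overlap of single libraries.

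The other named rises were smaller. Syt4, a synaptotagmin gene, rose by 0.15, and March4, which encodes a membrane-bound ubiquitin ligase, by 0.15. Lypd1, whose product belongs to the Ly6 family and binds nicotinic receptors, rose by 0.29, and the kainate receptor subunit gene Grik4 by 0.20. The receptor phosphatase gene Ptprk rose by 0.20, the zinc finger gene Zmym3 by 0.17, and the splicing factor gene Srsf12 by 0.14. Scn3b, a sodium channel beta subunit, rose by 0.12, Jph4, a neuronal junctophilin that ties the endoplasmic reticulum to the plasma membrane, by 0.12, and Gas8, a gene of ciliary motility, by 0.11.

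The fall with the smallest adjusted p was that of Elmo1, whose protein activates the small GTPase Rac together with DOCK proteins. Its normalized count ran from 3064 to 3806 in HT, with a median of 3356, and from 3506 to 4141 in WT, with a median of 3883. All 30 HT libraries lay below the WT median and all 27 WT libraries above the HT median, although the ranges overlapped. The pooled log2 change was -0.18 ± 0.02 (adjusted p = 4.28e-08), a loss of 11.9%, and was -0.16, -0.18 and -0.21 in vehicle, fluoxetine and lithium. In fluoxetine the highest HT library, at 3668, lay just under the lowest WT library, at 3688, and in lithium the HT libraries ended at 3411 and the WT libraries began at 3542. Elmo1 too was chosen on these values, and the share of all genes with ranges apart in these treatments was not counted.

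Chrnb3, which encodes the beta-3 subunit of nicotinic acetylcholine receptors, had the largest fall outside the region. It is a low gene, from 8.81 to 34.0 in HT (median 20.5) and from 16.9 to 74.2 in WT (median 36.4). All 30 HT libraries lay below the WT median. The log2 change was -0.97 ± 0.11 (adjusted p = 7.35e-08), with -1.03 in vehicle, -0.88 in fluoxetine and -1.001 in lithium.

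Klhdc8a, a kelch domain gene, ran from 464 to 785 in HT and from 650.3 to 946 in WT and had a log2 change of -0.32 ± 0.04 (adjusted p = 2.92e-07). Stac2, whose protein binds voltage-gated calcium channels, ran from 902 to 2128 in HT and from 1679 to 2657 in WT and fell by 0.39 ± 0.05 (adjusted p = 2.92e-07). For both genes all 30 HT libraries lay below the WT median. Aldh1a1, an enzyme gene of retinoic acid synthesis, ran from 740.3 to 1331 in HT and from 1084 to 1480.1 in WT and fell by 0.35 ± 0.04 (adjusted p = 4.63e-07). Pcp4, which encodes a small calmodulin-binding protein, ran from 3468 to 5690.0 in HT and from 4939 to 8665 in WT and fell by 0.34 ± 0.04 (adjusted p = 9.92e-07), again with every HT library below the WT median. Elmo1, Chrnb3, Klhdc8a and Aldh1a1 were the 4 genes outside the region that were called in each of the 3 treatments alone, a set picked out after its values were seen.

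The other named falls fell by 0.18 to 0.61 on the log2 scale. Cplx1, whose complexin clamps and triggers the release machinery, fell by 0.23, and Syt2, a fast calcium sensor of vesicle release, by 0.61. Lynx1, a Ly6 protein gene that restrains nicotinic receptors, fell by 0.27, and the background potassium channel gene Kcnk2 fell by 0.23. Adcyap1, the gene of the neuropeptide PACAP, fell by 0.37, and Rcan2, a regulator of calcineurin, by 0.18. Klhdc7a fell by 0.45, Plxdc1 by 0.33 and Pamr1 by 0.27. Aldh1a1, Kcnk2 and Syt2 each overlap another tested gene on the opposite strand, and Kcnk2 also overlaps Pdcd5-ps on the same strand. How strand was treated in counting remains not given in the sources used here. Without strand, the reads of opposite-strand partners cannot be told apart.

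**Figure D2:**
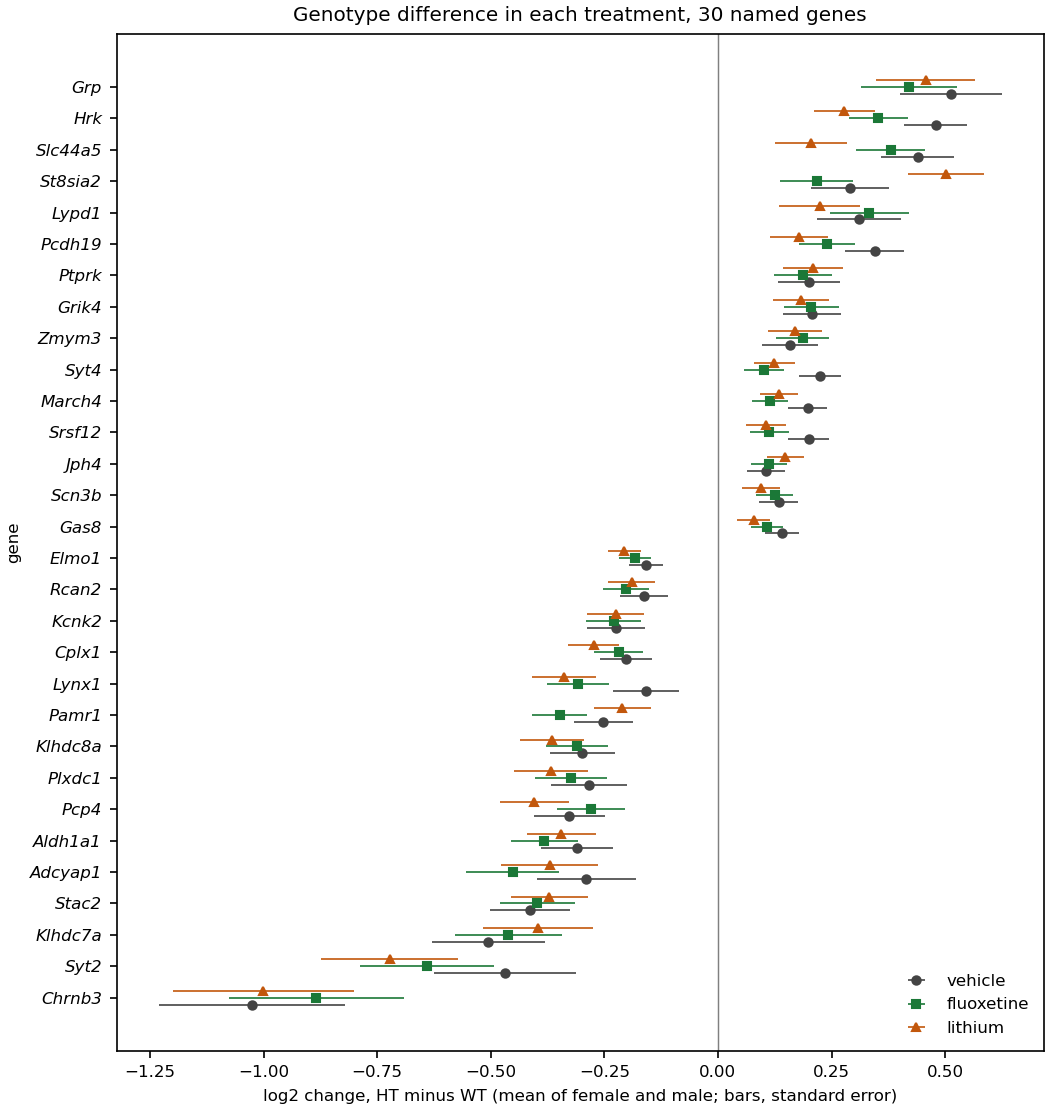
Log2 change of HT against WT (horizontal axis, mean of the female and male difference, bars showing the standard error) in vehicle, fluoxetine and lithium for the 15 rises and 15 falls named from the genes separated in every treatment. The 3 points of a gene lie on 1 side of 0, as the choice of the genes requires, with Chrnb3 farthest to the left and Grp farthest to the right.

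Taken alone, the treatments called 16 of these 30 genes in vehicle, 11 in fluoxetine and 10 in lithium. The background in these comparisons was 0.762, 0.222 and 0.114% of all genes tested. The 30 genes were chosen for a small p in each treatment, so shares above this background follow from the choice. For each of the 30, between 26 and 30 of the 30 HT libraries lay beyond the WT median, yet for none were the HT and WT ranges apart over all libraries. Over all 16659 genes only Shank2 and Gm26793 had such separate ranges (0.012%). All 30 stayed called with any 1 library left out and with tissue terms. Lypd1 and Zmym3 were no longer called without the fluoxetine libraries. Of the other 67 named genes called over all treatments, 54 lost the call when the libraries of at least 1 treatment were left out, among them Adgrl2, Grm2 and Krt80 without fluoxetine or without lithium and Vip without vehicle or without fluoxetine. Such losses were common: of all 623 called genes, 251, 135 and 247 stayed called without vehicle, fluoxetine or lithium libraries. Fewer libraries enter these fits, and the part of that in the losses was not tested.

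No gene passed the test for a genotype difference that varied with treatment (0 called by limma, smallest adjusted p = 0.671, 1079 genes at an unadjusted p under 0.05). With a weight for each library 1 gene was called, and 1 gene when WT vehicle male 2 was left out. This does not show that the effects are alike in the 3 treatments. For Hrk, the difference of the genotype effect between lithium and vehicle was -0.20 with a 95% interval from -0.39 to -0.01, and for Chrnb3 it was 0.03 with an interval from -0.55 to 0.60. For Elmo1 the interval ran from -0.15 to 0.06, beside a pooled change of -0.18.

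Esr1, the gene of estrogen receptor alpha, was called over all treatments but was not among the separated genes. It ran from 160.5 to 345 in HT (median 252) and from 117 to 288 in WT (median 187) and rose by 0.38 ± 0.06 (adjusted p = 0.00015). In vehicle the log2 change was 0.64, in fluoxetine 0.40 and in lithium 0.10, where it was not called. Its unadjusted p for a difference between treatments was 0.00532 (adjusted p = 0.671). WT lithium libraries had a mean of 227 ± 40.04 (SD, n = 9) against 168 ± 20.01 (SD, n = 8) with vehicle, while HT means were 245 and 263. Without the vehicle libraries Esr1 was no longer called.

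Across the 16543 genes outside the region, genotype effects in the 3 treatments were only weakly alike. Vehicle and fluoxetine effects had the same sign for 58.5% of genes, vehicle and lithium effects for 57.4%, and fluoxetine and lithium effects for 60.5%. The corresponding Spearman rho across genes was 0.226, 0.213 and 0.262, and Pearson's r 0.139, 0.208 and 0.149. Genes are not independent replicates, and these pairs share neither HT nor WT libraries.

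Genes called in vehicle can be read in drug-treated mice, whose libraries bore on the choice only through the spread that the fit shares between groups. Outside the region 122 genes were called in vehicle. Of these, 108 had the same sign over fluoxetine and lithium, against 59.8% of all genes, and 60 had the same sign with an unadjusted p under 0.05, against 11.9% of all genes. Their median absolute change was 0.25 in vehicle, the values that chose them, and 0.07 in the vehicle direction over the drugs. The vehicle count rests on few libraries: leaving out HT vehicle female 5 gave 34 genes and leaving out WT vehicle male 1 gave 394.

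**Figure D3:**
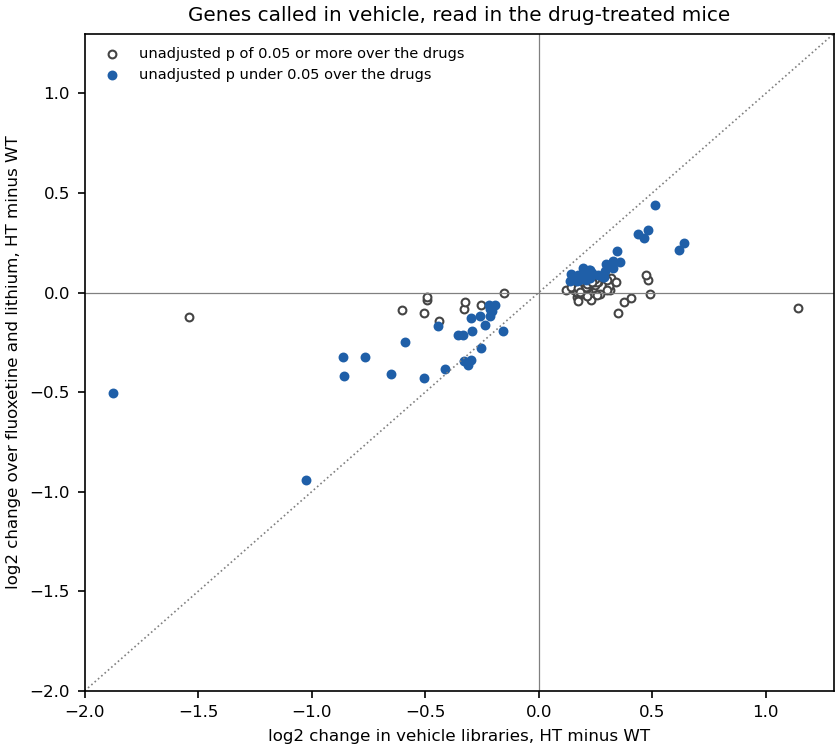
Log2 change of HT against WT in vehicle libraries (horizontal axis) and over fluoxetine and lithium libraries (vertical axis) for the 122 genes called in vehicle outside the Shank2 region; filled points have an unadjusted p under 0.05 over the drugs, and the dotted line marks equal change. Most points lie on the side of 0 that they have in vehicle but nearer to 0 than the dotted line, and 60 are filled.

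The 5 largest rises outside the region were in low genes: Apoc1 (0.72), an apolipoprotein gene, Vwa3b (0.58), Tbx22 (0.53), a T-box transcription factor gene, Padi6 (0.53) and Myo1h (0.46). Apoc1 ran from 5.82 to 26.1 in HT and from 3.18 to 17.6 in WT, and its difference was 0.29 in vehicle, 0.73 in fluoxetine and 1.15 in lithium. Vwa3b lost its call without any 1 of 33 libraries (highest adjusted p = 0.0792) and with tissue terms. Padi6 lost it without any 1 of 3 libraries, HT lithium female 4, WT vehicle female 1 or WT vehicle female 3 (highest adjusted p = 0.0537). Tbx22 lost it with tissue terms (adjusted p = 0.0539) and had a change of -0.00 in fluoxetine.

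After Chrnb3 the largest falls were Clic6 (-0.96), Jaml (-0.89), Krt80 (-0.75) and Scn4b (-0.73). Jaml, which encodes a junctional adhesion molecule of immune cells, ran from 5.13 to 32.2 in HT and from 9.04 to 52.7 in WT and fell by 0.85, 0.77 and 1.05 in vehicle, fluoxetine and lithium. Krt80, a keratin gene, ran from 26.8 to 177 and from 38.8 to 245 and fell by 0.72, 0.59 and 0.93. Clic6, known from choroid plexus, ran from 5.48 to 58.1 in HT and from 10.6 to 196 in WT, where vehicle libraries alone reached 196. With tissue terms its change was -0.46 (adjusted p = 0.0368), and that of Scn4b, a sodium channel subunit of striatal neurons, was -0.46 (adjusted p = 0.00119). Scn4b is itself among the striatal markers that make up those terms.

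Gene lists of synapses, channels, signals and cell types describe where the called genes lie. Counts are of genes called over all treatments, to be set beside 1.62% higher and 2.12% lower of all genes, and medians beside 0.001 over all genes tested. Counts of genes above or below 0 stand beside 8418 above and 8241 below among the 16659 tested. Genes of a list are not independent replicates. The 55 glutamatergic postsynapse genes included 8 that were higher and 2 that were lower, and their median was 0.046. That median was 0.090 in vehicle, 0.009 in fluoxetine and 0.028 in lithium. The rises included Grik4 (0.20), the NMDA receptor subunit gene Grin3a (0.14) and Cttn (0.12), an actin regulator gene next to Shank2. The falls were Grm2 (-0.30) and Grm4 (-0.25), which encode presynaptic inhibitory glutamate receptors. Grm2 ran from 1297 to 2379 in HT and from 1452 to 3374 in WT, and its change was -0.26, -0.30 and -0.33 in vehicle, fluoxetine and lithium.

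In the presynaptic vesicle cycle list (47 genes, median 0.011) 1 gene was higher and 3 were lower, and all 4 were separated in every treatment. Syt4 rose, and ran from 5577 to 7061 in HT and from 4546 to 6427 in WT. Cplx1 ran from 12262 to 18271 in HT (median 15348) and from 14716 to 21341 in WT (median 17917) and changed by -0.20, -0.22 and -0.27 in vehicle, fluoxetine and lithium (pooled adjusted p = 2.71e-06). Syt2 ran from 246 to 919 in HT (median 462) and from 461 to 1199 in WT (median 822), with -0.47, -0.64 and -0.72 (pooled adjusted p = 6.28e-06). Vamp1, a synaptobrevin gene of the vesicle membrane, fell by 0.20 ± 0.04 (adjusted p = 0.00128), and it too overlaps a gene on the opposite strand.

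Of 25 GABA synapse genes 2 were lower, among them Slc32a1, the vesicular GABA transporter gene (-0.21). Neither was separated in every treatment. The list median was -0.023 over all treatments and 0.031, -0.071 and -0.036 in vehicle, fluoxetine and lithium. Slc32a1 had a change of -0.09 with tissue terms (adjusted p = 0.0565). The 61 synaptic adhesion genes included 5 that were higher and 0 that were lower, and their median was 0.039, or 0.024 without WT vehicle male 2. That median was not constant over treatments: 0.115 in vehicle, -0.013 in fluoxetine and -0.007 in lithium. The 5 higher genes were Adgrl2, a latrophilin gene (0.17), Cdh13, a cadherin gene (0.20), Lrrtm1 (0.13), Slitrk3 (0.09) and Epha4 (0.14). Adgrl2 ran from 3683 to 5376 in HT and from 3224 to 5022 in WT, with 0.18, 0.14 and 0.19 in vehicle, fluoxetine and lithium, and was the only one of the 5 that was separated in every treatment. Lrrtm1 and Slitrk3 were not called with tissue terms.

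Of 52 potassium and HCN channel genes, 6 were lower and 0 higher, with a median of -0.043. The sign of that median varied: 0.030 in vehicle, -0.088 in fluoxetine and -0.054 in lithium. Kcnk2, a background potassium channel gene, ran from 1055 to 1682 in HT (median 1345) and from 1219.5 to 1891 in WT (median 1580.0) and changed by -0.22, -0.23 and -0.23 in the 3 treatments. Hcn2, a pacemaker channel gene, ran from 2771 to 3874 in HT and from 3163 to 3941 in WT and fell by 0.12 ± 0.02 (adjusted p = 0.00037). Kcnip3 and Kcnip2, accessory subunits of A-type channels, fell by 0.15 and 0.13, although Kcnip2 had -0.25 in vehicle and -0.02 in lithium. Among 24 sodium and calcium channel genes 2 were higher, Scn3b and Cacna1g (0.14), and 2 were lower, among them Scn4b. Cacna1g, a T-type calcium channel gene, lost its call without WT lithium female 1 or WT vehicle female 4 (highest adjusted p = 0.0583) and with tissue terms.

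Among 35 genes of neuropeptides and their receptors 4 were higher and 2 lower, with a median of -0.005. The rises were Grp, Vip (0.21), the gene of vasoactive intestinal peptide, the neurotensin receptor gene Ntsr1 (0.24) and Tac2 (0.19), and the falls Adcyap1 and Ntsr2 (-0.16). Vip ran from 1042 to 1911 in HT and from 971 to 1602 in WT, with 0.27, 0.17 and 0.19 in vehicle, fluoxetine and lithium. Adcyap1 ran from 427 to 1027 in HT and from 587 to 1219 in WT, with -0.29, -0.45 and -0.37. Ntsr1 had 0.36, 0.32 and 0.04 and was not separated in every treatment.

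Chrnb3 was the only one of 16 acetylcholine receptor genes that was called. Among 15 serotonin genes Htr3a was higher (0.18) and Tph2 (-0.49), Maob (-0.13) and Htr1f (-0.27) were lower. Tph2, which makes serotonin in neurons of the brainstem, was near the minimum level, from 9.31 to 24.8 in HT and from 13.1 to 39.6 in WT, with -0.65, -0.52 and -0.29 in vehicle, fluoxetine and lithium. Htr3a lost its call without HT lithium female 4, WT lithium female 1 or WT vehicle female 3 (highest adjusted p = 0.0509) and Htr1f without any 1 of 7 libraries (0.0552), and both lost it with tissue terms.

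Hrk was joined by 1 more called gene among 24 of the BCL2 family and apoptosis: Bok, which fell by 0.20 ± 0.05 (adjusted p = 0.00644). The list median was -0.003. Of 26 steroid and nuclear receptor genes Esr1 rose and Esrra fell by 0.10. None of 26 immediate early genes, which respond to neuronal activity, was called (0 by limma). Their median was -0.055 over all treatments and -0.148, 0.010 and 0.000 in vehicle, fluoxetine and lithium. Of 29 ERK and cyclin pathway genes only Ccnd1, a neighbour of Shank2, was called.

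Autism risk genes, 100 tested, had 3 higher and 0 lower, among them Nexmif (0.14) and Med13l (0.10), and none of the 3 was separated in every treatment. The list's differences were small and mostly above 0, positive for 84 of 100 with a median of 0.049. That median was 0.087 in vehicle, 0.015 in fluoxetine and 0.021 in lithium. WT vehicle male 2 stood apart in this list, with a summed level of 397000 against 506800 to 620000 in the other WT libraries. Without it the median was 0.029 over all treatments and 0.039 in vehicle, and 76 of 100 were positive. Med13l lost its call without any 1 of 39 libraries (highest adjusted p = 0.0847). Cytosolic ribosomal protein genes lay below 0 for 76 of 78, with a median of -0.062 and 2 called lower, Rplp1 and Rpl23a. Oxidative phosphorylation genes lay below 0 for 73 of 74, with a median of -0.072 and 3 called lower, Sdhc (-0.12), Atp5k (-0.13) and Ndufs8 (-0.10). Of these 5 only Sdhc kept its call with every library left out in turn. The others lost it without any 1 of 11 to 34 libraries, with highest adjusted p-values from 0.0666 to 0.0846. WT vehicle male 2, whose deviations from the other libraries had a Spearman correlation of -0.317 with transcript length across genes, the lowest of the 57 libraries, also stood apart in both lists. Its summed ribosomal level was 406200, against 245600 to 317900 in the other WT libraries, and its oxidative phosphorylation level 382700, against 249800 to 300800. Without it the ribosomal median was -0.045, with 72 of 78 below 0, and the oxidative phosphorylation median -0.049, with 71 of 74 below 0, while in vehicle the latter was -0.011.

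Cell type markers checked whether cell classes differed with genotype. Upper layer excitatory neuron markers had 0 of 10 called (median -0.013), and deep layer markers 1 of 14, Ntsr1 (median 0.039). Interneuron markers had 1 of 20 higher, Vip, and 2 lower, Pvalb and Slc32a1, with a median of -0.096, or -0.017 with tissue terms. Pvalb, which encodes parvalbumin, a calcium buffer of fast-spiking interneurons, ran from 219.7 to 581 in HT (median 379) and from 307 to 871 in WT (median 508). Of the 30 HT libraries 28 lay below the WT median, the log2 change was -0.34 ± 0.07 (adjusted p = 0.00143), and it was -0.29, -0.35 and -0.39 in vehicle, fluoxetine and lithium. Pvalb was not called without the fluoxetine libraries, while with tissue terms its change was -0.38 (adjusted p = 0.000622). The summed level of the 20 interneuron markers ran from 34010 to 53500 in HT and from 36800 to 66330 in WT, and its part in the falls of Pvalb, Slc32a1 and Syt2 was not tested.

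Glial and vascular markers lay mostly below 0. Their counts called lower stand beside 2.12% of all genes tested. The astrocyte and endothelial shares lay above it, as did those of oligodendrocyte precursors and microglia, which rest on 1 gene each. Astrocyte markers had 5 of 21 lower, Acsbg1 (-0.18), Ntsr2 (-0.16), Gjb6 (-0.28), S100b (-0.14) and Aldoc (-0.10), with a median of -0.099 and summed levels from 209600 to 276800 in HT and from 194700 to 304900 in WT. All 17 oligodendrocyte markers lay below 0, with a median of -0.214, or -0.090 with tissue terms, yet 0 were called, and their summed level spread from 71120 to 184100 in HT and from 87090 to 218900 in WT. Endothelial and mural markers had 3 of 20 lower, Abcb1a (-0.18), Ly6c1 (-0.24) and Itm2a (-0.19), with a median of -0.095. Itm2a lost its call with tissue terms (adjusted p = 0.0512) and without the filter on low values. Oligodendrocyte precursor markers had 1 of 13 lower (Neu4, -0.17), and microglial markers 1 of 20 (C1qb, -0.16). Neu4 lost its call without any 1 of 13 libraries (highest adjusted p = 0.0656) and C1qb without any 1 of 10 (0.0589). Leptomeningeal and red blood cell markers had 0 of 14 and 0 of 7 called.

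In each list of neighbouring tissue 1 marker was called, and the medians varied across treatments. The median of 22 striatal markers was -0.267 over all treatments and -0.669, -0.031 and -0.105 in vehicle, fluoxetine and lithium, and 1 was called lower, Scn4b. The 15 olfactory bulb markers had a median of -0.133, made of -0.375, 0.238 and -0.325 in vehicle, fluoxetine and lithium, with 1 lower, Pcp4l1 (-0.47), and the 13 thalamic markers -0.084 with 1 lower, Tnnt1 (-0.42). Of the 15 choroid plexus and ependymal markers 8 passed the minimum level, and Clic6 was called lower. With tissue terms the striatal and olfactory medians were 0.033 and 0.000. The terms are built from these same markers and hold such medians near 0, so these values support nothing. With those terms 375 of the 623 genes stayed called, and Tnnt1 was not called. The same terms left Hrk at 0.35, Elmo1 at -0.16, Chrnb3 at -0.95, Grp at 0.41 and Syt2 at -0.59, all still called.

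**Figure D4:**
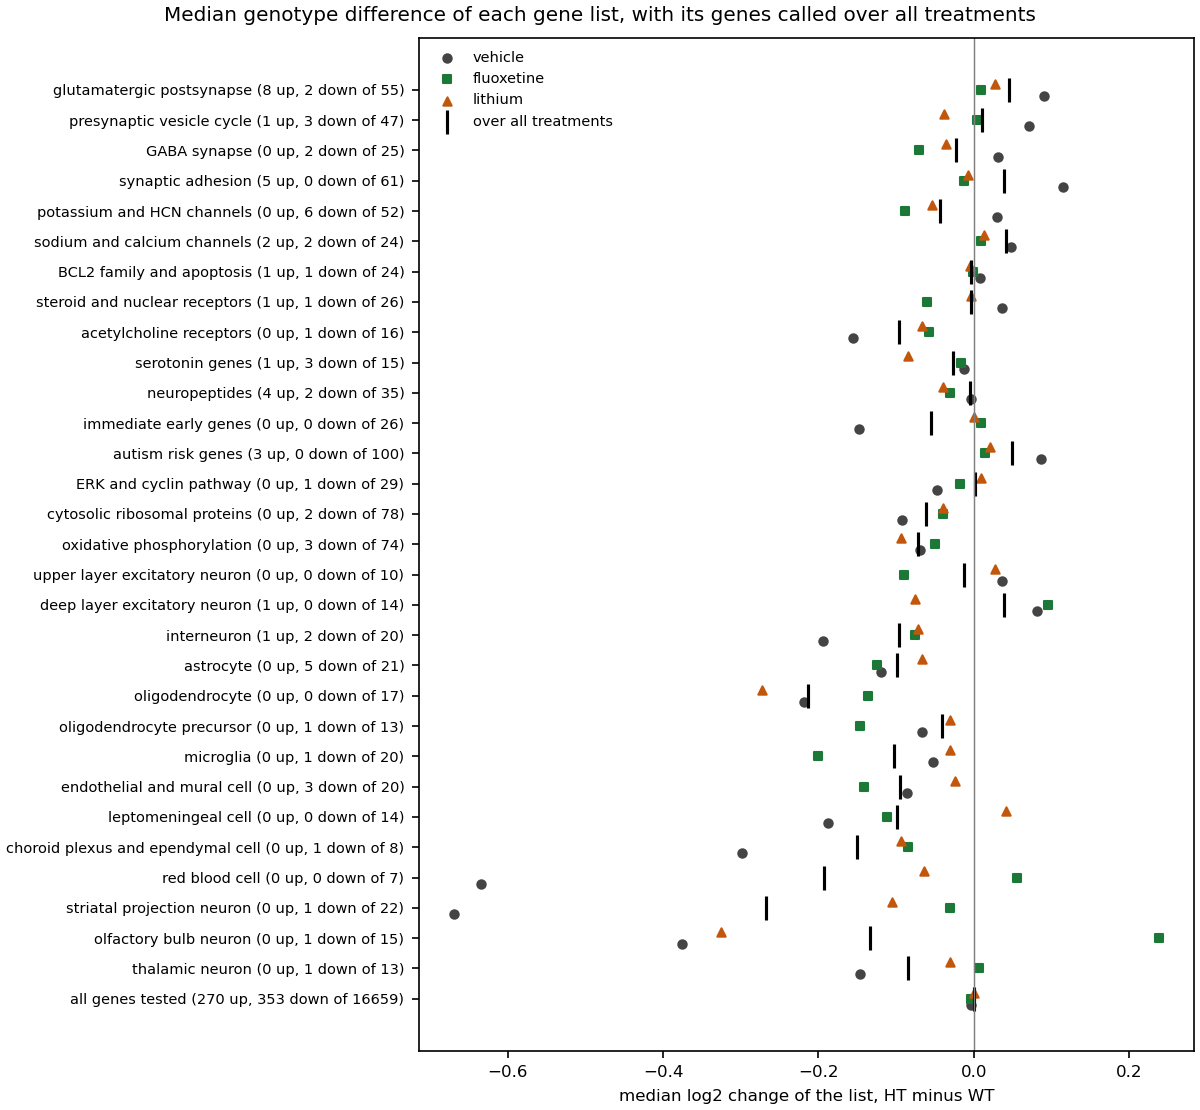
Median log2 change of HT against WT (horizontal axis) of each gene list in vehicle, fluoxetine and lithium (points) and over all treatments (vertical mark), with the genes called over all treatments in each direction beside the list's name. Medians over all treatments lie between -0.267 for striatal markers and 0.049 for autism risk genes, and the vehicle points of striatal, red blood cell and olfactory markers lie farthest from 0.

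The pooled difference was also read in each sex. In females 108 genes were called (0.648%) and in males 1606 (9.64%), with median standard errors of 0.06 in both. The male count was 958 without WT vehicle male 2. It was 255 once each library's correlation with transcript length entered the fit (the length term). Of the 108 separated genes, all had the same sign in both sexes, 88 were called in males and 39 in females, and none was called for a difference between the sexes. The genes were chosen on the mean of both sexes, so these counts too are a description. Their median absolute change was 0.19 in females and 0.24 in males. Hrk changed by 0.37 in both sexes and Elmo1 by -0.18 in both. Syt2 had -0.92 in females and -0.31 in males, and the 95% interval of male minus female ran from 0.26 to 0.96. Chrnb3 had -1.26 and -0.68, with an interval from 0.11 to 1.03, and neither passed after adjustment.

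A test of the difference between the sexes called 98 genes (0.588%), 64 with a higher and 34 with a lower HT minus WT difference in males. Among those with the smallest adjusted p, Pnrc2 had a genotype difference of 0.10 in females and -0.14 in males, Tinagl1 0.05 and -0.52, and Fam167a 0.25 and -0.50. The count was 0 without the filter on low values, with quantile normalization, with library weights and with the length term, and ran from 0 to 727 with single libraries left out. It is given as a value of this fit alone.

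Near Shank2 on chromosome 7 the called genes were denser. Within 1 Mb of Shank2, 8 of 26 other tested genes were called, and from 1 to 5 Mb 6 of 74. From 5 to 10 Mb 0 of 15 were called, from 10 to 50 Mb 12 of 391, and farther away on the chromosome 27 of 798 (background 3.74%). Of the 15 called genes of the region, Shank2 included, 12 were separated in every treatment. Those between 1 and 5 Mb include Cfap46, a gene of motile cilia 4.32 Mb from Shank2, and Lrrc27, 4.76 Mb away. Cfap46 ran from 68.6 to 187 in HT and from 26.2 to 143 in WT and rose by 0.72, 0.73 and 0.91 in the 3 treatments (pooled adjusted p = 6.28e-06). Cfap46 overlaps Gm4459 on the same strand. Lrrc27 ran from 128 to 329.5 in HT and from 80.6 to 206 in WT and rose by 0.64, 0.73 and 0.38, and it overlaps a gene on the opposite strand.

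Nearer to Shank2, the antisense-annotated Gm26793 (GRCm38 chromosome 7, 144894560 to 144897461, GENCODE vM21) ran from 37.5 to 100.2 in HT and from 0 to 6.66 in WT, without overlap. The cyclin D1 gene Ccnd1 (144929931 to 144939925) ran from 684 to 1484 in HT and from 1409 to 2583 in WT and overlaps LTO1 on the opposite strand. Mrgprf, a receptor gene of the Mas-related family 0.876 Mb away, rose by 0.58 ± 0.09, with every HT library above the WT median. Whether sequence carried along with the Shank2 allele or the allele itself goes with these differences cannot be told apart in this design.

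**Figure D5:**
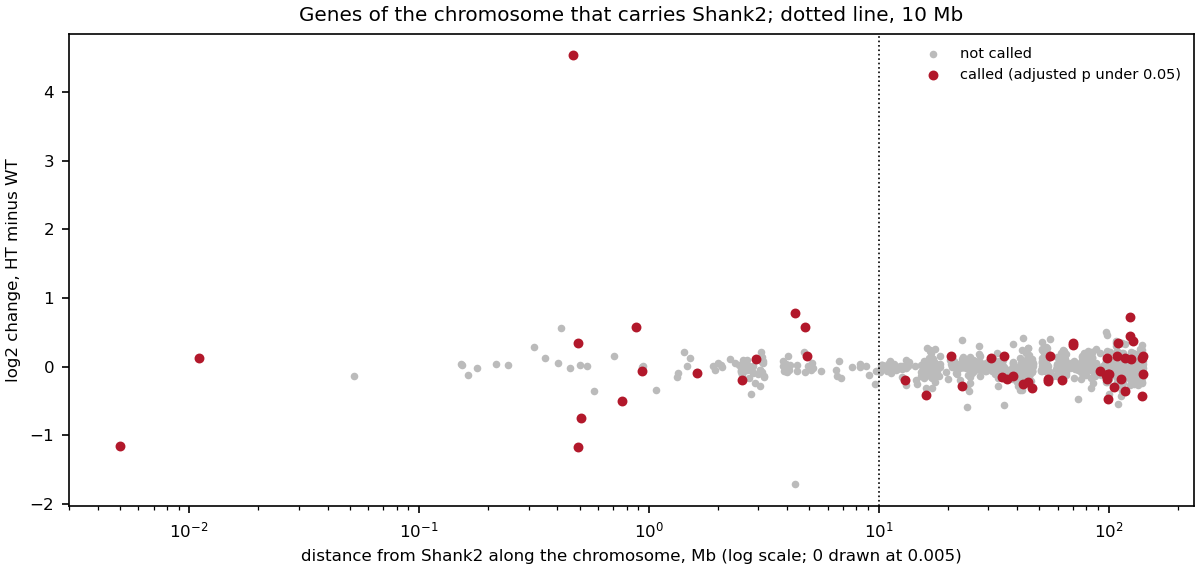
Log2 change of HT against WT over all treatments (vertical axis) against distance from Shank2 along its chromosome in Mb (horizontal log axis); dark points are called genes, pale points the others, and the dotted line marks 10 Mb. Within 1 Mb the called points reach 4.54 and -1.18, while beyond 10 Mb the 39 called points spread over the chromosome at small changes.

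The separated genes outside the region lay on many chromosomes, but some were close neighbours with the same sign, such as Stac2 and Plxdc1 on chromosome 11. The 34 rises lay on 15 chromosomes and the 74 falls on 19. The rises had a median transcript length of 2242 bases, against 1560.0 over all genes tested, and a median normalized count of 1588, against 547. The falls had medians of 1770.0 bases and 1060.4. Over all called genes outside the region the medians were 2264 bases and 1781.9 for rises and 1603 bases and 1006.4 for falls. No test was made of these features. With the length term in the fit 117 genes were separated in place of 108, and 99 of them were among the 108. All 30 named genes stayed called.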

How the data were processed

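RNA from 57 prefrontal cortices was sequenced as stranded poly(A) libraries, per the labels' protocols. The authors deposited 1 signal value for each gene and library: an estimated count after normalization, made with Salmon 0.11.2, R 3.6.0 and DESeq2 1.19.11 on GRCm38 per the submitters' processing notes. Annotation release, filters and strand setting remain not given in the sources used here. Whole reads could not be recovered, so the read depth of a library is unknown and no interval of counting error is given. A pseudocount of 1 understates changes of low genes.

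Limma 3.58.1 (R 4.3.3, trend and robust moderation) was fitted to log2(value + 1) with 1 mean for each of 12 groups of genotype, drug and sex. Benjamini-Hochberg adjustment ran over 16659 genes with a mean of at least 10, and genes were called under 0.05. Coordinates and strands are those of GENCODE vM21, counted from 1. Symbols were given for 51285 of 51456 identifiers. No 2 libraries were identical. The sign ± precedes a standard error where it follows a log2 change and an SD where it follows a mean.

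The genes named are Shank2, Shank1 and Shank3, the called genes of its region, the 15 higher and 15 lower separated genes outside it that had the lowest adjusted p, the 5 largest changes in each direction, the leading called members of each list, and the 5 leading genes of the sex difference. Some genes that this rule selects are not reported here. Grm4, Epha4, Tac2 and Aldoc were added after their values were seen. The comparison, members and lists were chosen with earlier results of these data known. Alternatives changed the pseudocount, filter, scaling, moderation, library weights, replicate block, length and tissue terms, or left out libraries or treatments.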

Additional observations from a re-analysis of the deposited data

Results flagged for a closer look

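In the 16 genes plotted or described most fully, libraries far from the others of their genotype and treatment were looked for in 96 sets, and 7 sets held one, where chance alone gives about 1 in 20. HT fluoxetine male 3 was such a library for 3 genes: Hrk stood at 4479.3 (next highest 3685.8), March4 at 1623.8 (next 1461.2) and Stac2 at 901.61 (next lowest 1464.1). Its median correlation with the other libraries was 0.970, among the lowest. Hrk in WT fluoxetine female 4 stood at 2986.7 (next 2731.8). Pcp4 in HT vehicle male 1 stood at 3733.7 (next lowest 4691.1). Grm2 stood at 2119.3 in HT vehicle male 5 (next 1746.4) and at 3374.2 in WT vehicle female 1 (next 2246.9), a library with a high summed level of olfactory bulb markers (48090). Hrk, March4, Stac2, Pcp4 and Grm2 stayed called over all treatments without each of these libraries.

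The genotype difference differed between the sexes (limma, adjusted p = 0.0428 for each) for 5 named genes. Male minus female was -0.2415 for Pnrc2, -0.5623 for Tinagl1, -0.7489 for Fam167a, 0.5846 for Catspere2 and -0.2337 for Usp21. Each of the 5 lost this call without any 1 of 29 libraries (highest adjusted p = 0.0794) and under 6 other settings.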

How the results depend on the processing

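The count of 623 genes called over all treatments was 501 without HT lithium female 4 and 872 without HT lithium female 1, the extremes over 57 libraries. It was 943 with library weights, 372 without vehicle libraries, 138 without fluoxetine libraries and 276 without lithium libraries, where fewer libraries enter. The count of 108 separated genes ran from 86 to 139 over single libraries. Single libraries moved the vehicle count of 127 between 34 and 394 and the lithium count of 19 between 7 and 36. The fluoxetine count of 37 ran between 8, without HT fluoxetine male 3, and 48. The genotype-by-treatment count ran between 0 and 1, the female count between 76 and 164, the male count between 958 and 2319, and the sex difference between 0 and 727.

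Without the filter on low values the counts were 64 in vehicle, 13 in fluoxetine, 936 in males and 0 for the sex difference. With library weights they were 61 in vehicle, 110 in fluoxetine, 128 in lithium, 1 for genotype by treatment, 232 in females and 0 for the sex difference. The length term gave 255 in males and 0 for the sex difference. Tissue terms gave 43 in vehicle, 95 in fluoxetine, 64 in females and 0 for the sex difference. The sex difference was 167 genes at a mean of at least 50, and 0 with quantile normalization or without trend and robust moderation. The causes of these moves were not tested. No count and no named gene that was called reversed its direction, but of the 30 list medians 5 changed sign with tissue terms. The striatal median (-0.267 to 0.033) was held near 0, since its own markers make up a term. The rest were the medians of neuropeptide (-0.005 to 0.035), serotonin (-0.027 to 0.001), BCL2 (-0.003 to 0.008) and ERK and cyclin genes (0.002 to -0.003). The length term turned 1 and leaving out WT vehicle male 2 turned 4, each within 0.011 of 0 on both sides.

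Replicate numbers were shared between groups, but residuals of libraries with the same number did not go together (mean correlation -0.008 over 300 pairs, against 0.002 over 1188 other pairs). The numbers are those of the titles, and for some WT vehicle female libraries the library names hold other numbers. With the replicate block 619 genes were called, 574 of them among the 623. It gave 108 separated genes, of which 101 were among the 108 of the main fit. The depth of single libraries is unknown, and genes near the minimum level are the least certain.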
